A study of Mus musculus with 16 samples.

Results

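Transcript levels of 9 genes for transient receptor potential (TRP) channels were examined in the trigeminal ganglion of the mouse: Trpm8, Trpa1, Trpv1, Trpv2, Trpv4, Trpm2, Trpm3, Trpc1 and Trpc5. They were taken by symbol from a list of channels for temperature, irritants and related stimuli, by a rule that uses no measured value. The list itself was chosen with earlier results of these data known. All 9 were present among the 25719 gene identifiers of the deposited tables. Each of 16 libraries came from polyadenylated RNA of 1 whole ganglion, with 4 libraries in each of 4 groups. The groups were Nogo-A KO mice 25 days after birth (P25 KO), wild-type mice of that age (P25 WT), Nogo-A KO embryos at day 14 (E14 KO) and wild-type embryos of that stage (E14 WT). Nogo-A, the protein missing in the KO animals, is the longest product of Rtn4, and in central myelin it restrains the outgrowth of axons. The labels name no strain, no sex and no design of the deleted allele. The study states 4 animals per group, but the library names pair E14 WT replicates 2 and 4 under ganglion number 4, and E14 KO replicates 1 and 3 under ganglion number 9, as right and left ganglia, so these may share an animal and the p-values may then measure spread within an animal as well.

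TRP channels are cation channels of the cell membrane, and sensory neurons of the trigeminal ganglion use several of them at their endings in the face, mouth, teeth and cornea. TRPM8 is opened by cooling and menthol, TRPA1 by reactive irritants such as mustard oil, TRPV1 by capsaicin, acid and noxious heat, and TRPM3 by pregnenolone sulphate and heat. TRPV2 was first described as a channel for extreme heat in transfected cells, TRPV4 responds to osmotic stimuli and warmth, and TRPM2 to ADP-ribose, oxidative stress and warmth. TRPC1 and TRPC5 are members of the canonical branch and can assemble with each other, and TRPC5 is a cold-sensitive channel.

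Promoter sequences are shown for Trpm8, whose levels differed the most between the stages, for Trpv1, whose levels differed little, and for the inner of 2 annotated starts of Trpm3. Each is the RefSeq sequence from 250 bases before to 50 bases after the transcription start, on the GRCm38.p6 assembly, in the direction of transcription. The Trpm8 window also belongs to an inner start, as the annotated gene begins at 88277661 on chromosome 1. Capitals mark the letters TAATTA, a core bound by many homeodomain factors, and TGTGGT or its reverse complement ACCACA, a core bound by RUNX factors. Both cores were searched on both strands, and no match overlapped another.
Trpm8, chr1:88306485-88306784, plus strand: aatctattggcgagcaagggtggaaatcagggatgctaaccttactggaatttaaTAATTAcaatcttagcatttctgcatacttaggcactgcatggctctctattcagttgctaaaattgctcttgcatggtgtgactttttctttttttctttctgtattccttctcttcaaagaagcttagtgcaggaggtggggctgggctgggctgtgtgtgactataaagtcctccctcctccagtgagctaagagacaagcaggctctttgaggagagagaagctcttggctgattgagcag
Trpv1, chr11:73233899-73234198, plus strand: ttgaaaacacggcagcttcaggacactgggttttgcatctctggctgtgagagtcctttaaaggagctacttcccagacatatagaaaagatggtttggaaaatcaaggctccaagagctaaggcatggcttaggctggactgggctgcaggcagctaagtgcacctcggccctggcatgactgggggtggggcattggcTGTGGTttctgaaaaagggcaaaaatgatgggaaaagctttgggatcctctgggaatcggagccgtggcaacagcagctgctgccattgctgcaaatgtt
Trpm3, chr19:22447958-22448257, plus strand: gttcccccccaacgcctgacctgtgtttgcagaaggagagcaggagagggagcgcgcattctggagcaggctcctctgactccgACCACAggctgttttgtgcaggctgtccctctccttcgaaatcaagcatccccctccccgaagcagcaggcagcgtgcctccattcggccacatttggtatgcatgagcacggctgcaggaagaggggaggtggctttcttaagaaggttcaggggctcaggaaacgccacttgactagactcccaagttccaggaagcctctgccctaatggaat
The Trpm8 window held 1 TAATTA and no TGTGGT, and the Trpv1 window held 1 TGTGGT and no TAATTA. Over 32851 RefSeq promoters of the same length, 5.29% held TAATTA and 16.8% held TGTGGT on either strand. The Trpm8 window had a GC content of 44.3% and 1 CpG, against 51.7% and 4 CpGs for Trpv1 and a median of 52.7% and 7 CpGs over all promoters. The inner Trpm3 window had a GC content of 58.0% and 10 CpGs, while the window at the outer Trpm3 start had 66.7% and 21 CpGs and neither core. Of the 9 genes, 8 had a promoter in the table, and Trpa1 had none. TGTGGT was also found in 2 of 3 windows of Trpv2, which overlap each other, and in no window of Trpv4, Trpm2, Trpc1 or Trpc5. The E-box core CANNTG, bound by bHLH factors and searched in the same way, was found in every window of the 8 genes and in 72.3% of all promoters. These matches are letters in a window and say nothing of binding.

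Library totals ran from 15532373 to 29562379 counts. E14 WT replicate 2 stood apart from its group: its median correlation with the other E14 WT libraries over genes was 0.936, against 0.980 or more for each of the other 15 libraries with their own groups. Rtn4 averaged 368 ± 17.9 CPM in P25 KO and 489 ± 58.7 CPM in P25 WT, and 298 ± 74.7 CPM in E14 KO and 360 ± 164 CPM in E14 WT (SD, n = 4 each), but the gene total also counts the shorter Rtn4 transcripts and so does not check the loss of Nogo-A. All 12 sensory neuron markers were measured, and their summed level averaged 20536 ± 886 CPM in P25 KO and 21604 ± 2240 CPM in P25 WT, and 18749 ± 1196 CPM in E14 KO and 17577 ± 1577 CPM in E14 WT (SD, n = 4 each). CPM is a count divided by the TMM-scaled library total and expressed per 1e+06 counts, and a gene is said to be called where the adjusted p from edgeR's quasi-likelihood test over all 15109 tested genes was under 0.05.

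The main difference among the channels lay between the stages. At P25 the ganglia held transcripts of the cold channel Trpm8 and the irritant channel Trpa1 at group means of 30.6 to 211 CPM, whereas at E14 both were close to the limit of detection. Trpm3, Trpc1 and Trpm2 were also higher at P25, by smaller factors, and Trpv1 and Trpv2, the leading channels at E14, were at similar levels at both stages. No channel was called between KO and WT ganglia at either stage. In whole ganglia, fewer cells of a type and less RNA per cell cannot be told apart.

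**Figure D1:**
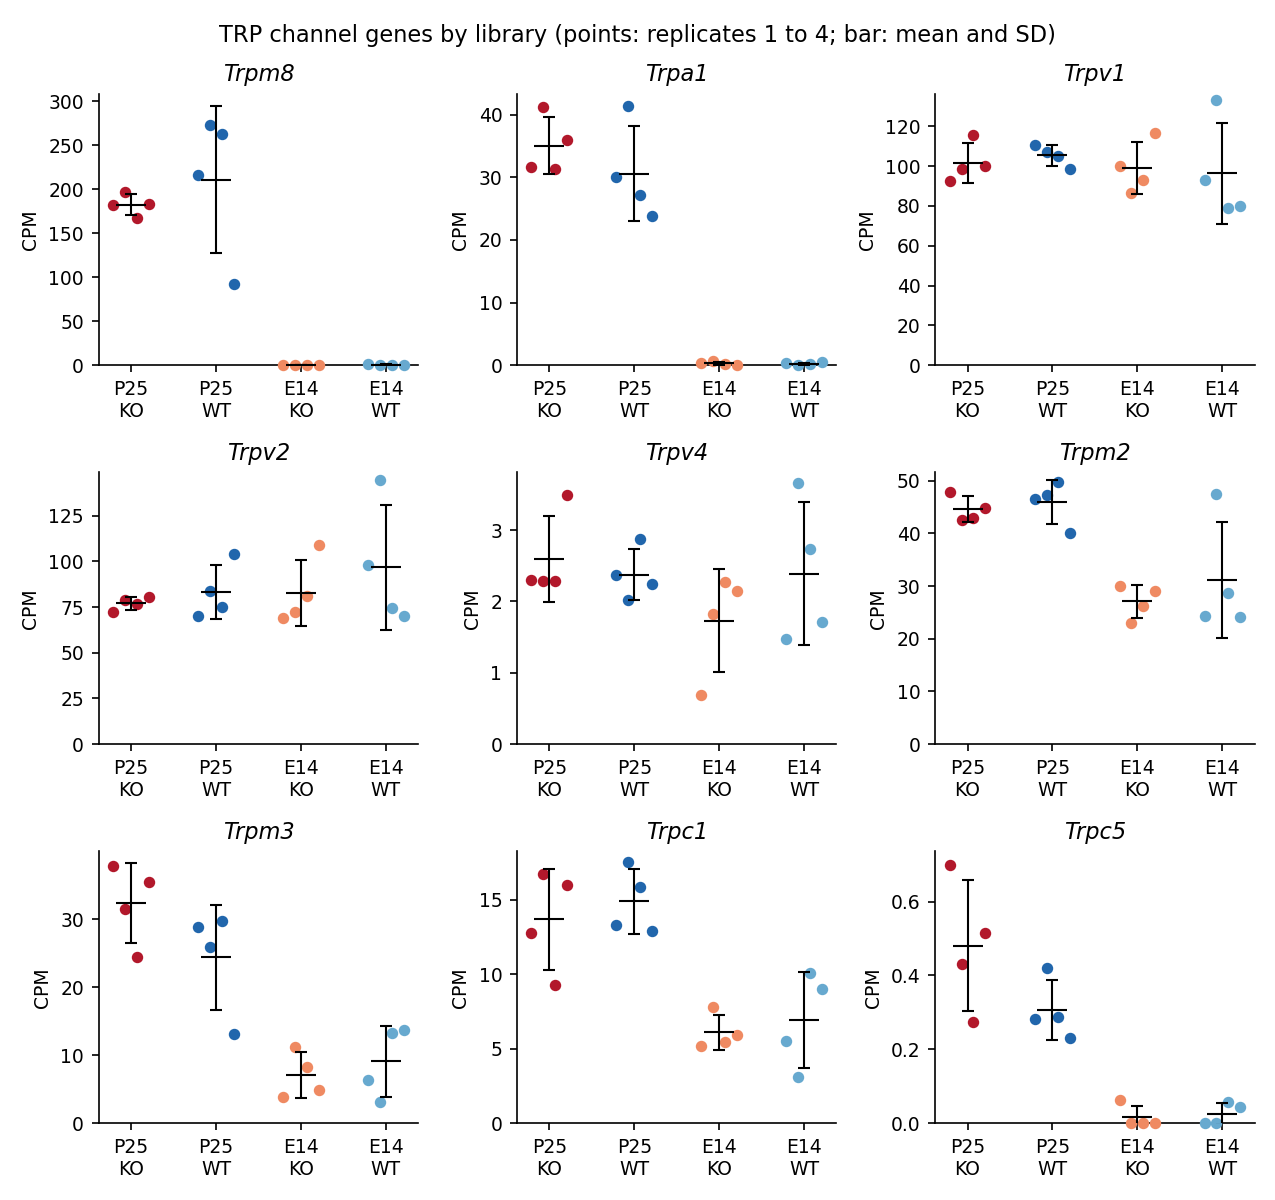
Level of each channel gene in CPM (linear axes from 0) in every library, with P25 KO left of P25 WT and E14 KO left of E14 WT; points are replicates 1 to 4 from left to right and black bars are the mean and SD of 4 libraries. Trpm8 and Trpa1 lie near 0 in all 8 E14 libraries and the KO and WT points overlap in every panel at both stages.

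Trpm8 (ENSMUSG00000036251, GRCm38 chromosome 1, 88277661 to 88389293) measured 182, 197, 167 and 183 CPM in P25 KO and 216, 273, 262 and 91.9 CPM in P25 WT. In the E14 KO libraries it measured 0.126, 0.420, 0.291 and 0.476 CPM, from 26 counts in all, and in the E14 WT libraries 0.917, 0.122, 0.398 and 0.131 CPM, from 32 counts in all. Every P25 library thus lay above every E14 library, and no library of either embryonic group was at 0. The log2 fold change of P25 over E14 was 9.04 (edgeR SE 0.48, 95% interval 8.04 to 10.03, adjusted p = 4.78e-12) in KO and 9.01 (SE 0.47, 95% interval 8.03 to 9.99, adjusted p = 3.94e-12) in WT. On the linear scale the WT interval corresponds to a ratio between 261 and 1017. Among P25 WT libraries, replicate 4 was low at 91.9 CPM, and the 4 P25 KO libraries lay within the range of P25 WT.

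Trpa1 (ENSMUSG00000032769, GRCm38 chromosome 1, 14872648 to 14918862) measured 31.7, 41.2, 31.4 and 36.0 CPM in P25 KO and 30.1, 41.3, 27.1 and 23.8 CPM in P25 WT. At E14 it measured 0.316, 0.653, 0.175 and 0.0952 CPM in KO, from 24 counts, and 0.275, 0, 0.114 and 0.438 CPM in WT, from 18 counts. The stages did not overlap in either genotype. P25 over E14 gave a log2 fold change of 6.77 (edgeR SE 0.44, adjusted p = 8.70e-11) in KO and 7.06 (SE 0.45, adjusted p = 7.65e-11) in WT. Trpm8 and Trpa1 passed the filter on low counts through their P25 libraries, so only a call higher at P25 was open to them. The filter did not set the size of the difference.

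Trpv1 (ENSMUSG00000005952, GRCm38 chromosome 11, 73234292 to 73261242) was already abundant in the embryonic ganglion. It measured 92.6, 98.4, 116 and 99.9 CPM in P25 KO and 111, 107, 105 and 98.6 CPM in P25 WT. The E14 KO libraries held 99.98, 86.3, 93.1 and 116 CPM and the E14 WT libraries 93.0, 133, 79.1 and 80.1 CPM. All 4 groups overlapped, and their means lay between 96.4 and 105 CPM. The log2 fold change of P25 over E14 was 0.04 (edgeR SE 0.17, 95% interval -0.31 to 0.39, adjusted p = 0.858) in KO and 0.13 (SE 0.17, 95% interval -0.22 to 0.48, adjusted p = 0.530) in WT. E14 WT replicate 2 held the 133 CPM, and without it the WT value was 0.33 (SE 0.13, adjusted p = 0.0387), so that Trpv1 was then called higher at P25 in WT. Scaling the libraries by the summed sensory neuron markers turned the Trpv1 difference to -0.14 in WT (adjusted p = 0.453) and -0.09 in KO (adjusted p = 0.642), and with this scaling the median of all genes was -0.30 in WT and -0.12 in KO.

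Trpv2 (ENSMUSG00000018507, GRCm38 chromosome 11, 62574486 to 62600515) stood at similar levels. It measured 72.1, 79.0, 76.6 and 80.6 CPM in P25 KO and 69.9, 83.9, 75.1 and 104 CPM in P25 WT. At E14 it measured 69.2, 72.0, 81.2 and 109 CPM in KO and 98.2, 145, 74.5 and 70.1 CPM in WT. The stages overlapped in both genotypes, with a log2 fold change of -0.10 (edgeR SE 0.21, adjusted p = 0.689) in KO and -0.22 (SE 0.21, adjusted p = 0.387) in WT. Without E14 WT replicate 2, which again held the highest value, the WT difference was 0.04 (adjusted p = 0.852), whereas with scaling by sensory neuron markers it was -0.49 (adjusted p = 0.0229), past the threshold.

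Trpv4 (ENSMUSG00000014158, GRCm38 chromosome 5, 114622152 to 114658421) was low throughout. It measured 2.31, 2.28, 2.28 and 3.49 CPM in P25 KO and 2.38, 2.02, 2.87 and 2.24 CPM in P25 WT, and 0.695, 1.82, 2.27 and 2.14 CPM in E14 KO and 1.47, 3.66, 2.73 and 1.71 CPM in E14 WT. The lowest P25 KO library lay just above the highest E14 KO library, while the stages overlapped in WT. The log2 fold change of P25 over E14 was 0.57 (edgeR SE 0.35, adjusted p = 0.168) in KO and 0.00 (SE 0.35, 95% interval -0.72 to 0.73, adjusted p = 0.991) in WT, and the sign of the WT value changed with the scaling.

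Trpm3 (ENSMUSG00000052387, GRCm38 chromosome 19, 22139046 to 22995410) measured 37.9, 31.5, 24.4 and 35.4 CPM in P25 KO and 28.9, 25.9, 29.7 and 13.1 CPM in P25 WT. At E14 it measured 3.79, 11.2, 8.33 and 4.81 CPM in KO and 6.42, 3.11, 13.2 and 13.6 CPM in WT. All P25 KO libraries lay above all E14 KO libraries, whereas in WT the stages overlapped through P25 WT replicate 4. P25 minus E14 on the log2 scale was 2.19 (edgeR SE 0.40, adjusted p = 8.70e-05) in KO and 1.42 (SE 0.39, adjusted p = 0.00361) in WT.

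Trpm2 (ENSMUSG00000009292, GRCm38 chromosome 10, 77907722 to 77970563) measured 47.9, 42.6, 42.9 and 44.9 CPM in P25 KO and 46.6, 47.4, 49.7 and 40.0 CPM in P25 WT, and 30.0, 23.0, 26.3 and 29.1 CPM in E14 KO and 24.3, 47.4, 28.7 and 24.2 CPM in E14 WT. All P25 KO libraries lay above all E14 KO libraries, while in WT the stages overlapped through the 47.4 CPM of E14 WT replicate 2. The log2 fold change of P25 over E14 was 0.72 (edgeR SE 0.19, adjusted p = 0.00350) in KO and 0.56 (SE 0.19, adjusted p = 0.0169) in WT. Without E14 WT replicate 2 the WT value was 0.84 (adjusted p = 3.25e-05). The WT call was lost with scaling by sensory neuron markers (0.30, adjusted p = 0.174) and in a fit of the 8 WT libraries alone (0.55, adjusted p = 0.0785).

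Trpc1 (ENSMUSG00000032839, GRCm38 chromosome 9, 95705082 to 95750375) measured 12.8, 16.7, 9.31 and 16.03 CPM in P25 KO and 13.3, 17.5, 15.9 and 12.9 CPM in P25 WT, and 5.18, 7.79, 5.48 and 5.95 CPM in E14 KO and 5.55, 3.11, 10.1 and 9.03 CPM in E14 WT. No P25 library lay as low as any E14 library of its genotype. On the log2 scale the difference, P25 minus E14, was 1.16 (edgeR SE 0.29, adjusted p = 0.00177) in KO and 1.10 (SE 0.29, adjusted p = 0.00265) in WT.

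Trpc5 (ENSMUSG00000041710, GRCm38 chromosome X, 144381671 to 144688180) was the only channel of the 9 that did not pass the filter on low counts. It had 17, 10, 6 and 13 counts in P25 KO and 7, 10, 8 and 6 counts in P25 WT, against 1, 0, 0 and 0 counts in E14 KO and 0, 0, 1 and 1 counts in E14 WT. The scaled ratio of the summed counts, P25 over E14, was 36.7 in KO with an exact 95% counting interval of 6.26 to 1480, and 11.9 in WT with an interval of 3.03 to 102.7, covering counting error only. In a fit without the filter Trpc5 was called higher at P25 in KO (edgeR adjusted p = 0.00033) and in WT (adjusted p = 0.00386).

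Of the 8 tested channels, 5 were called higher at P25 in KO and the same 5 in WT, namely Trpm8, Trpa1, Trpm3, Trpc1 and Trpm2, and 0 were called lower. Of all tested genes, 59.8% were called between the stages in KO, 30.6% higher and 29.2% lower at P25, and 59.6% were called in WT, 29.7% higher and 29.8% lower. A call between the stages was thus common in these ganglia, and the called channels differed among themselves in size, at 6.77 or more on the log2 scale for Trpm8 and Trpa1 and at 2.19 or less for Trpm3, Trpc1 and Trpm2. The 5 had positive stage values in both genotypes under every scaling tried and with any 1 library left out, but the WT call of Trpm2 was lost with scaling by sensory neuron markers (0.30, adjusted p = 0.174).

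**Figure D2:**
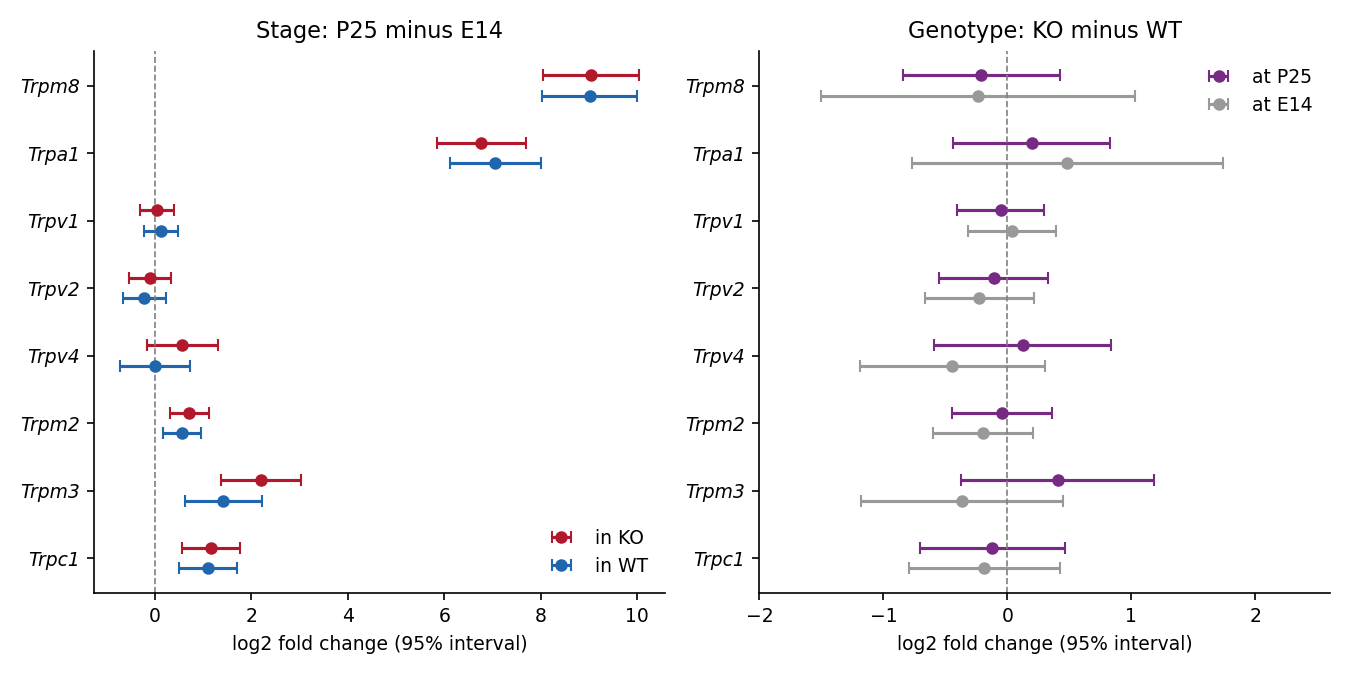
Log2 fold changes with 95% intervals for the 8 tested channels: P25 minus E14 on the left (KO above WT for each gene) and KO minus WT on the right (P25 above E14). Stage intervals lie above 0 for Trpm8, Trpa1, Trpm2, Trpm3 and Trpc1 in both genotypes, and every KO minus WT interval includes 0.

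Other transcripts of the ganglion moved with the stage as well, and 30.6% of all tested genes were called higher at P25 in KO and 29.7% in WT. Summed markers of myelinating Schwann cells averaged 31106 ± 9257 CPM in P25 KO and 30642 ± 2086 CPM in P25 WT, against 473 ± 47.7 CPM in E14 KO and 483 ± 76.4 CPM in E14 WT (SD, n = 4 each), and all 7 of 7 were called higher at P25 in both genotypes. Summed satellite glia markers averaged 7374 ± 995 CPM in P25 KO and 7236 ± 1378 CPM in P25 WT, against 1204 ± 151 CPM in E14 KO and 1213 ± 185 CPM in E14 WT. Of 12 macrophage markers, 11 were called higher at P25 in KO and 10 in WT. The summed sensory neuron markers, given above, were closer between the groups, but some of these markers were called higher at P25 and others lower. Their sum is therefore no direct measure of neuron content. Scaling by it left Trpm8 at 8.91 in KO and 8.76 in WT and Trpa1 at 6.62 in KO and 6.78 in WT on the log2 scale. The part of cell composition in the stage differences, large or small, was not tested.

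Per kb of the longest coding transcript, a rough scale for comparing genes that depends on the transcript taken, Trpm8 led at P25 with 44.0 ± 2.92 CPM per kb in KO and 50.9 ± 20.02 CPM per kb in WT (SD, n = 4 each). Trpv1 followed with 30.2 ± 2.95 CPM per kb in P25 KO and 31.3 ± 1.51 in P25 WT, and Trpv2 with 26.5 ± 1.27 in P25 KO and 28.6 ± 5.15 in P25 WT. Trpv1 and Trpv2 overlapped in both genotypes, whereas Trpm8 stood clear of Trpv1 in P25 KO and overlapped it in P25 WT through replicate 4. Then came Trpa1 at 8.22 CPM per kb in P25 KO and 7.17 in P25 WT, and Trpm2 at 6.13 in P25 KO and 6.31 in P25 WT. Trpc1 lay at 3.01 CPM per kb in P25 KO and 3.27 in P25 WT, and Trpm3 at 2.63 in P25 KO and 1.98 in P25 WT. Trpv4 lay at 0.803 CPM per kb in P25 KO and 0.736 in P25 WT, and Trpc5 at 0.115 in P25 KO and 0.0735 in P25 WT.

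The embryonic order was different. At E14, Trpv1 averaged 29.4 CPM per kb in KO and 28.7 in WT, and Trpv2 28.5 in KO and 33.3 in WT, with overlapping libraries, so that these heat-related channels together led the list. Trpm2 was next at 3.73 CPM per kb in E14 KO and 4.28 in E14 WT, clear of the channels on either side. Trpc1, Trpm3 and Trpv4 lay between 0.537 and 1.52 CPM per kb, and Trpm8, Trpa1 and Trpc5 were below 0.1 CPM per kb in both genotypes. With the union of all exons as the length, which counts every annotated exon once, the P25 order was the same, while at E14 Trpv1 came before Trpv2 in WT, and Trpv4 before Trpm3 and Trpa1 before Trpm8 in KO. Shorter coding transcripts were not tried as the length, and the order may differ with them. The middle coding transcript had 5192 bases for Trpm3, against 12305 for the longest, and 731 for Trpm2, against 7274.

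**Figure D3:**
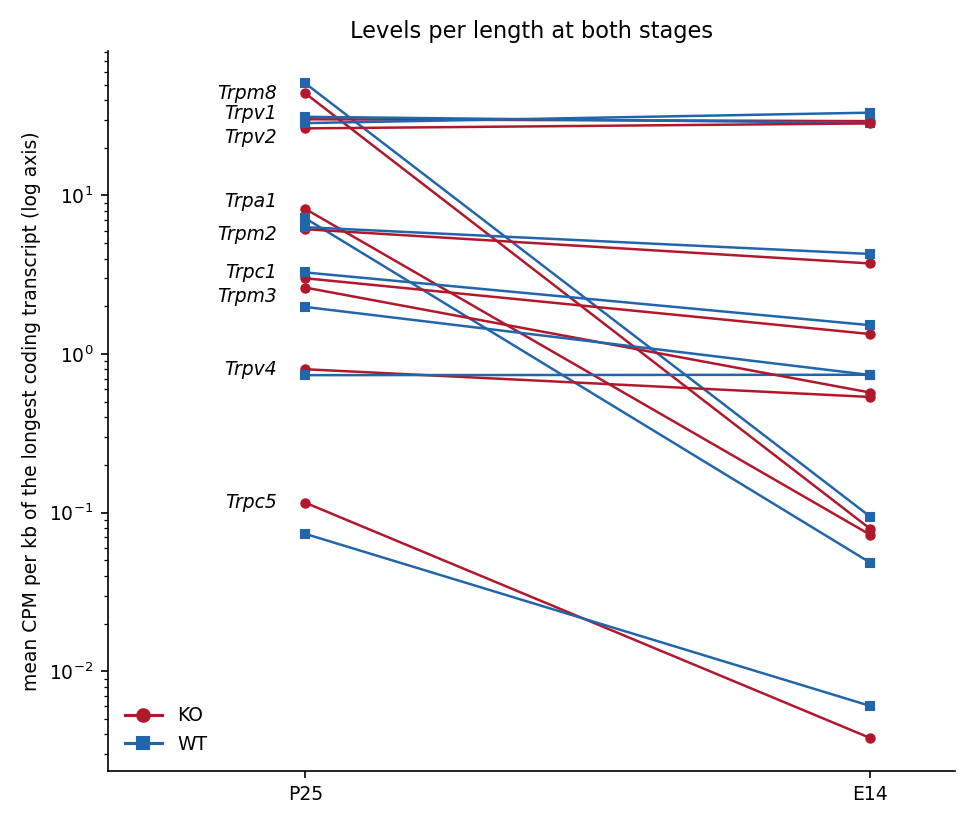
Mean level of each channel in CPM per kb of the longest coding transcript (log axis; mean of 4 libraries) at P25 on the left and E14 on the right, for KO (red circles) and WT (blue squares). Trpv1 and Trpv2 stay near 30 at both stages, while Trpm8 is first at P25 and below 0.1 at E14.

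Between the genotypes, 0 of 8 tested channels were called at P25, where 0.0463% of all tested genes were called (0.0199% higher and 0.0265% lower in KO), and 0 of 8 at E14, where 0.0199% were called, all lower in KO. No channel had an unadjusted p under 0.05 in edgeR at either stage, and DESeq2 also called 0. For each of the 9 channels the KO and WT libraries overlapped at both stages. How many of all genes overlapped likewise was not counted, so the overlap is not shown to be particular to the channels.

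The intervals show what size of genotype difference these libraries leave possible. For Trpv1, KO minus WT at P25 was -0.05 on the log2 scale (95% interval -0.40 to 0.30, edgeR adjusted p = 1), which spans a KO level from -24.3% to 23.1% relative to WT. At E14 its interval was -0.31 to 0.39. Trpm2 was about as narrow, with P25 values from -0.44 to 0.36, and Trpv2 ran from -0.55 to 0.33. Wider ranges were left for Trpm8, at -0.21 (95% interval -0.84 to 0.43) at P25 and -0.24 (-1.50 to 1.03) at E14, and for Trpa1, at 0.20 (-0.43 to 0.83) at P25 and 0.48 (-0.77 to 1.74) at E14. Trpc1 measured -0.12 (-0.71 to 0.46) at P25 and -0.19 (-0.79 to 0.42) at E14, and Trpv4 measured 0.12 (-0.59 to 0.84) at P25 and -0.44 (-1.19 to 0.30) at E14. These ranges do not show that KO and WT levels are alike.

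Of the 8 tested channels, Trpm3 had the genotype value farthest from 0 at P25, 0.41 (edgeR SE 0.37, 95% interval -0.38 to 1.19, adjusted p = 1), and -0.37 (SE 0.39, adjusted p = 0.943) at E14. The difference between its stage effects, KO minus WT, was 0.77 (SE 0.54, 95% interval -0.36 to 1.90, adjusted p = 0.993). No channel was called for such a stage by genotype interaction in edgeR, where 0 of 15109 genes were called and 647 had an unadjusted p under 0.05, and no channel was among these 647. Without E14 WT replicate 2 the Trpm3 interaction was 1.05 (SE 0.45, adjusted p = 0.520).

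A few P25 values rested on P25 WT replicate 4. Without it, Trpm8 in P25 KO minus P25 WT was -0.46 (edgeR SE 0.26, adjusted p = 1) and was not called. With replicate 4, the 4 KO libraries, at 167 to 197 CPM, lay within the P25 WT range of 91.9 to 273 CPM. Trpm3 was 0.20 without replicate 4. This library was also the lowest P25 WT library in Trpm2, Trpa1, Trpv1, Trpc1 and Trpc5 and the highest in Trpv2. Its summed nociceptor markers were the lowest of P25 WT at 3595 CPM, against 4272 to 4520 CPM in the other 3, its summed thermal companion genes were 1497 CPM, against 2481 to 2665 CPM, and its summed sensory neuron markers were the highest at 24738 CPM, against 19621 to 21588 CPM. The part of these in its TRP values was not tested.

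E14 WT replicate 2 was the other library with a pattern across channels. It held the highest Trpv1, Trpv2, Trpv4 and Trpm2 of E14 WT, and the lowest Trpm3, Trpc1, Trpm8 and Trpa1. Its summed nociceptor markers were 5004 CPM, against 2961 to 3481 CPM in the other 3 E14 WT libraries. E14 WT replicate 4, named as the ganglion of the opposite side with the same number, held 80.1 CPM of Trpv1 where replicate 2 held 133 CPM. Without replicate 2 the E14 WT means were 84.1 ± 7.73 CPM for Trpv1, 80.9 ± 15.1 CPM for Trpv2, 25.7 ± 2.56 CPM for Trpm2 and 11.1 ± 4.04 CPM for Trpm3 (SD, n = 3). No channel was called between E14 KO and E14 WT without it either.

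Variation of the channels within groups was described over the 8 P25 libraries, as deviations of log2 CPM from the group mean. Trpm2 and Trpm3 varied together (Pearson r = 0.92), as did Trpm3 and Trpm8 (r = 0.88) and Trpm2 and Trpm8 (r = 0.83), whereas Trpv2 varied against Trpm3 (r = -0.84). Over all 16 libraries these values were -0.53 for Trpm2 with Trpm3, 0.41 for Trpm3 with Trpm8, -0.12 for Trpm2 with Trpm8 and -0.77 for Trpv2 with Trpm3. Without E14 WT replicate 2 they were 0.00 for Trpm2 with Trpm3, 0.30 for Trpm3 with Trpm8, 0.29 for Trpm2 with Trpm8 and -0.61 for Trpv2 with Trpm3. At P25, Trpv1 varied little with Trpm8 (r = 0.28) or Trpa1 (r = 0.11). The P25 points share 8 libraries, and P25 WT replicate 4 lies at the end of several of these ranges.

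The genes most like 3 of the channels were taken over all 16 libraries, as the highest Pearson r between within-group deviations. For Trpm8 they were Kcnk18 (r = 0.90), which encodes the potassium channel TRESK of sensory neurons, Prepl (0.89) and Dtx3l (0.87). For Trpa1 they were Mpeg1 (0.91), a gene of macrophages, Tifa (0.86) and Rap1b (0.84), and for Trpv1 they were Elmo2 (0.97), Timm29 (0.97) and Ddb1 (0.96). Without E14 WT replicate 2 the Trpv1 values were 0.92, 0.91 and 0.92; for Trpm8 they were 0.90, 0.88 and 0.86, and for Trpa1 0.90, 0.83 and 0.80. These are descriptions over libraries that share a depth and a dissection each. At E14, Trpm8 had 2 to 20 counts per library and Trpa1 0 to 14. Their E14 deviations therefore carry much counting error, and the genes ranked beside them are uncertain.

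The other 19 genes of the TRP family in the list were examined in the same fit, and 13 of them passed the filter. In KO 6 were called higher at P25 and 4 lower, and in WT 5 were called higher and 3 lower. Over all tested genes the shares were 30.6% higher and 29.2% lower in KO, and 29.7% higher and 29.8% lower in WT. Trpc6, a diacylglycerol-gated channel, averaged 5.04 ± 1.02 CPM in P25 KO and 4.88 ± 1.04 CPM in P25 WT, against 3 counts in all in E14 KO and 0.174 ± 0.0960 CPM in E14 WT (SD, n = 4), with a log2 fold change of 4.74 (edgeR SE 0.46, adjusted p = 2.92e-08) in WT. In KO the value was 6.81 (edgeR SE 0.57, adjusted p = 3.60e-09). Like Trpm8 and Trpa1, Trpc6 passed the filter on low counts through its P25 libraries. Trpm6, a magnesium-permeable channel kinase, averaged 1.67 ± 0.234 CPM in P25 KO and 1.76 ± 0.249 CPM in P25 WT, against 0.562 ± 0.330 CPM in E14 KO and 0.450 ± 0.309 CPM in E14 WT.

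Members of the family were also lower at P25. Trpm5, the channel of taste cell signalling, averaged 0.243 ± 0.0668 CPM in P25 KO and 0.203 ± 0.137 CPM in P25 WT, against 2.56 ± 0.482 CPM in E14 KO and 3.50 ± 1.86 CPM in E14 WT (log2 fold change in WT -4.06, edgeR SE 0.47, adjusted p = 4.04e-07). Trpm5 passed the filter on low counts through its E14 libraries, so only a call lower at P25 was open to it. Trpc2, the pheromone transduction channel of the mouse vomeronasal organ, had a log2 fold change of -2.87 in WT (SE 0.31, adjusted p = 1.66e-07), though its locus overlaps a neighbouring readthrough gene and its estimate is therefore uncertain. The family's median log2 fold change was 0.59 in KO and 0.19 in WT, against 0.01 in KO and 0.00 in WT over all tested genes. The count called higher in WT was 3 with scaling by sensory neuron markers and 3 without P25 WT replicate 4. In KO it was 8 without E14 WT replicate 2. Calls over all tested genes, in either direction, moved too. In WT they numbered 9001 of 15109 in the main fit. They were 9217 of 15109 with the marker scaling and 8674 of 15253 without P25 WT replicate 4. In KO they numbered 10284 of 15314 without E14 WT replicate 2, against 9032 of 15109 in the main fit. No gene of the family was called between KO and WT at either stage.

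**Figure D4:**
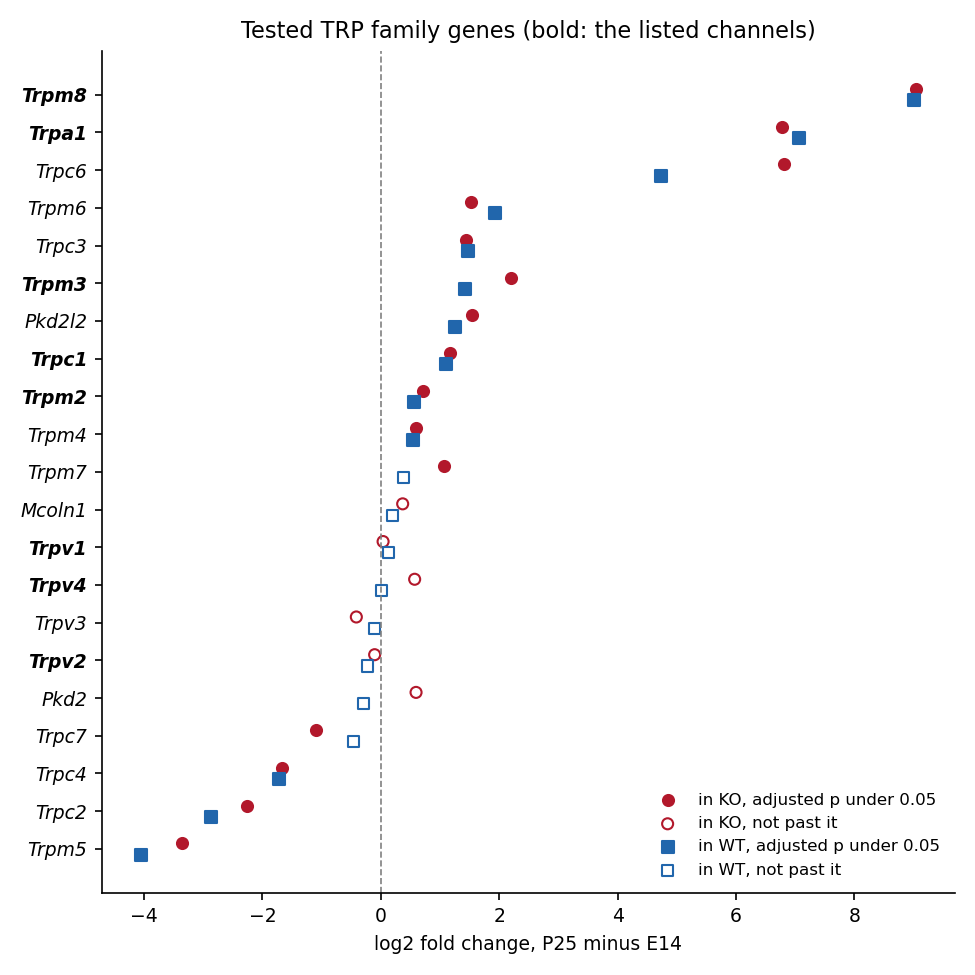
Log2 fold change of P25 minus E14 for the 21 tested TRP family genes, ordered by the WT value, with KO (red circles) above WT (blue squares); filled points have an edgeR adjusted p under 0.05 and bold names are the 9-gene list without Trpc5. Trpm8 and Trpa1 have the highest WT values, and Trpm5, at -4.06 in WT, the lowest. In KO, Trpc6 at 6.81 lies slightly above Trpa1 at 6.77.

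Genes for proteins that bind or modulate TRP channels were called in both directions, as were tested genes at large. Of 18 listed partners, 16 were tested, with 4 called higher and 4 lower at P25 in KO and 6 higher and 4 lower in WT. The shares of all tested genes were 30.6% higher and 29.2% lower in KO, and 29.7% higher and 29.8% lower in WT. Tmem100, whose product adjusts the coupling of TRPA1 with TRPV1, averaged 19.8 ± 2.81 CPM in P25 KO and 21.2 ± 4.38 CPM in P25 WT, against 0.610 ± 0.0211 CPM in E14 KO and 0.722 ± 0.403 CPM in E14 WT, a log2 fold change of 4.85 (edgeR SE 0.31, adjusted p = 6.08e-11) in WT. Prkca, a protein kinase C gene, had a log2 fold change of 1.39 in WT (adjusted p = 2.55e-05). Bdkrb2, the bradykinin B2 receptor, ran from 8.44 to 9.55 CPM in P25 KO and from 9.66 to 12.3 CPM in P25 WT, against 66.5 to 85.4 CPM in E14 KO and 54.0 to 123 CPM in E14 WT, a log2 fold change of -2.78 in WT (adjusted p = 1.61e-09). None of the 16 was called between KO and WT at either stage. The KO count of partners called higher at P25 was 8 without E14 WT replicate 2. In that fit 10284 of 15314 tested genes were called in KO in either direction, against 9032 of 15109 in the main fit. The median over the 16 was 0.27 in KO and 0.24 in WT.

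Among 12 temperature-related channels and factors outside the TRP family, 7 were called higher and 1 lower at P25 in KO, and 8 higher and 1 lower in WT. All tested genes had shares of 30.6% higher and 29.2% lower in KO, and 29.7% higher and 29.8% lower in WT. Ano1, a heat-sensitive chloride channel, averaged 9.97 ± 0.554 CPM in P25 KO and 11.3 ± 1.58 CPM in P25 WT, against 1.31 ± 1.07 CPM in E14 KO and 0.919 ± 0.545 CPM in E14 WT, and its log2 fold change in WT was 3.59 (edgeR SE 0.42, adjusted p = 4.95e-07). Hcn2, a pacemaker channel of nociceptors, was higher by 3.25 in WT (adjusted p = 2.00e-09), and Kcnk10, a temperature-sensitive potassium channel, had a log2 fold change of -1.52 in WT (adjusted p = 1.44e-07). The median over the 12 was 1.53 in KO and 1.62 in WT.

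Among the nociceptor markers, 7 of 12 were called higher and 4 lower at P25 in KO and likewise in WT. Of all tested genes, 30.6% were called higher and 29.2% lower in KO, and 29.7% higher and 29.8% lower in WT. Calca, which encodes the neuropeptide CGRP, averaged 298 ± 58.3 CPM in P25 KO and 334 ± 124 CPM in P25 WT, against 5.51 ± 1.61 CPM in E14 KO and 4.96 ± 2.36 CPM in E14 WT. Mrgprd, a receptor of nonpeptidergic nociceptors, had 5907 counts in P25 KO and 5929 counts in P25 WT, against 0 counts in E14 KO and 1 count in E14 WT. Mrgprd thus passed the filter on low counts through its P25 libraries. P2rx3, an ATP-gated channel of nociceptors, averaged 127 ± 7.03 CPM in P25 KO and 124 ± 22.3 CPM in P25 WT, against 509 ± 40.1 CPM in E14 KO and 514 ± 12.5 CPM in E14 WT, a log2 fold change of -2.05 in WT (edgeR adjusted p = 5.54e-10). Of the 12 sensory neuron markers, 6 were called higher and 4 lower in KO, and 6 higher and 3 lower in WT, with Nefh at 5.08, Snap25 at 3.12, Isl1 at -1.57 and Prph at -0.94 on the log2 scale in WT. No marker of either list was called between KO and WT. The median of the nociceptor markers was 1.05 in KO and 1.00 in WT, and that of the sensory neuron markers was 0.29 in KO and 0.30 in WT.

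Markers of other cell types at the 2 stages were counted in the same way. The shares over all tested genes were 30.6% higher and 29.2% lower in KO, and 29.7% higher and 29.8% lower in WT. Of 8 satellite glia markers 6 were called higher at P25 in both genotypes, led in WT by S100b at 4.75 and Apoe at 3.65 on the log2 scale, and the Schwann cell markers were led by Ncmap at 9.52 and Prx at 6.96. The leading macrophage markers were Mrc1 at 2.49 and C1qa at 1.92. All 5 tested oligodendrocyte markers were called higher in both genotypes, among them Mobp and Olig1, with 0 counts of Mobp in E14 WT. The summed markers of this list averaged 0.0291 CPM in E14 KO and 0.0678 CPM in E14 WT. They passed the filter on low counts through their P25 libraries, so only a call in this direction was open to them. Of 7 endothelial markers 1 was called higher and 5 lower in KO, and 1 higher and 6 lower in WT, with Cldn5 at 1.47, Pecam1 at -2.05 and Cdh5 at -1.86 in WT. Of 7 fibroblast and mural markers 5 were called higher in KO and 4 in WT, with Dcn at 3.66 and Rgs5 at 2.91 in WT. Of 3 tested epithelial markers 1 was called higher and 1 lower in KO, and 2 higher and 1 lower in WT, with Perp at 1.95 in WT. Of 3 tested melanocyte markers 2 were called higher and 1 lower in both genotypes, with Tyrp1 at 4.46, Mitf at 2.53 and Pmel at -1.01 in WT. Of 4 tested choroid plexus markers 3 were called higher and 1 lower in KO, and 2 higher and 1 lower in WT.

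None of these markers was called between KO and WT in edgeR. Summed macrophage markers averaged 76.3 ± 7.80 CPM in E14 KO and 113 ± 23.7 CPM in E14 WT, and 6 of the 12 had an unadjusted p under 0.05 at E14, as had 735 of all 15109 tested genes. Summed oligodendrocyte markers ranged from 43.1 to 102 CPM in P25 KO and from 1.40 to 87.2 CPM in P25 WT. The part of either in the genotype values of the channels was not tested.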

How the data were processed

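The values were estimated counts per gene, which the authors deposited in whole numbers. Software listed by the submitters' processing notes, without roles, was fastp 0.20.0, kallisto 0.46 and DESeq2 1.32.0, with the build GRCm39. Per the labels' protocols the libraries were stranded; whether counting used strand is not stated there. Estimated counts assign shared reads by probability, which makes overlapping genes less certain. Groups and replicate numbers came from the sample titles, and positions and lengths from a GRCm38 annotation.

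The estimated counts, as deposited, were analysed with edgeR 4.0.16 under R 4.3.3: TMM scaling, filterByExpr, a mean per group over all 16 libraries, the quasi-likelihood test and Benjamini-Hochberg adjustment over 15109 genes. SEs and 95% intervals were derived from the F statistic. The procedure was tested on simulated data. Counting intervals are exact and cover counting error only, since amplified reads are not independent molecules. Tried besides were DESeq2 1.42.0, scaling by RLE, by library totals or by sensory neuron markers, no low-count filter, a stricter one (at least 1 CPM in 4 libraries), a block for the replicate number, adding up ganglia that share a number, the compared libraries only, and leaving out each library. Replicates differed by more than sampling noise.

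The members, lists and tests were chosen with earlier results of these data known. From each of 14 other lists, genes called between genotypes were named, or, where there were none, the 2 called genes that changed most in either direction between the stages in WT, provided they averaged 1 CPM or more. A gene that this rule also names is not reported here. Likeness used log2(CPM + 0.5), for genes averaging 5 CPM or more.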

Additional observations from a re-analysis of the deposited data

Results flagged for a closer look

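Each of the 9 channels was screened in each of the 4 groups for a single value far from the other 3 relative to the range of its group, and 2 were found. Chance alone gives about 1 such value in 20 groups. Trpv4 in P25 KO replicate 4 stood at 3.49 CPM, against 2.28 to 2.31 CPM in the other 3 P25 KO libraries. Without that library, Trpv4 in P25 KO minus P25 WT was -0.05 on the log2 scale, against 0.12 with it, and it was not called either way (edgeR adjusted p = 1). Trpc5 in E14 KO replicate 1 stood at 0.0632 CPM, which is 1 count, and the other 3 E14 KO libraries were at 0, so that a single count was enough to set it apart.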

How the results depend on the processing

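The number of channels called was 0 between genotypes and for the interaction under every alternative run. Between stages it was 5 or 6 in KO and 4 to 7 in WT, where it was 7 without E14 WT replicate 2 and 4 with the compared libraries only. Calls over all genes moved as well. In WT they numbered 9688 of 15314 without E14 WT replicate 2, where Trpc5 was also tested. They were 7687 of 14578 with the compared libraries only, against 9001 of 15109 in the main fit. Trpm2 in WT was the channel lost. Those added were Trpc5 (where it was tested), Trpv1 in WT (higher at P25, without E14 WT replicate 2) and Trpv2 in WT (lower at P25, with scaling by sensory neuron markers). With any 1 library left out, the counts ran from 5 to 6 in KO and from 5 to 7 in WT.

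Signs of uncalled values changed as follows, on the log2 scale. With scaling by sensory neuron markers, Trpv1 became -0.0409 for KO minus WT at E14, 0.0108 at P25, -0.14 for P25 minus E14 in WT, -0.0890 in KO and 0.0518 for the interaction, Trpm2 became 0.0113 for KO minus WT at P25, and Trpv4 became -0.27 for P25 minus E14 in WT. The WT stage value of Trpv4 was also -0.0451 with library totals alone and -0.00767 with the compared libraries only, and the interaction of Trpv2 was -0.0426 with same-numbered ganglia summed. The cause was not tested. Leaving out 1 library changed the sign of further uncalled values. KO minus WT at E14 then ran from -0.00868 to 0.23 for Trpv1, -0.34 to 0.0329 for Trpv2, -0.25 to 0.0771 for Trpm2, -0.53 to 0.70 for Trpm8, -0.22 to 1.16 for Trpa1 and -0.42 to 0.0632 for Trpc1. KO minus WT at P25 ran from -0.19 to 0.0136 for Trpv2, -0.0527 to 0.23 for Trpv4 and -0.23 to 0.0244 for Trpc1. P25 minus E14 in KO ran from -0.0281 to 0.15 for Trpv1 and -0.18 to 0.0816 for Trpv2, and in WT from -0.34 to 0.0401 for Trpv2 and -0.10 to 0.28 for Trpv4. The interaction ran from -0.14 to 0.24 for Trpv2, -0.12 to 0.21 for Trpm2, -0.90 to 0.33 for Trpm8, -0.96 to 0.42 for Trpa1 and -0.18 to 0.30 for Trpc1.

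Replicate numbers are not stated to pair the libraries. Of 24 pairs with the same number, 9 had a correlation of deviations over 0.1, with a range of -0.56 to 0.39. Pairs with different numbers were not set against these, so the values cannot decide whether the numbers pair libraries. With the replicate block 5 channels were called between the stages in KO and 5 in WT, and the Trpm8 stage value was 9.05 in KO and 8.97 in WT. Of 15109 tested genes, 8744 in KO and 8679 in WT were then called between the stages. Over all genes, KO minus WT calls numbered 3 at E14 and 7 at P25 in edgeR, 5 at E14 and 18 at P25 with DESeq2, and 2 at E14 and 3 at P25 with the replicate block and likewise with the compared libraries only. Depth limits Trpm8, Trpa1 and Trpc5 at E14, where at most 32 counts per group were found.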
